A study of Rattus norvegicus with 12 samples.

Results

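The genes described here were 10 imprinted genes, Dlk1, Meg3, Cdkn1c, Plagl1, Grb10, Igf2r, Sgce, Nnat, Impact and Gnas, out of 30045 gene symbols in a count table of rat lung. They were chosen by the fold change between exposed and air rats, in which Dlk1 and Meg3 had the lowest and the third lowest value of all genes tested, together with imprinted growth genes known around that pair. Their values in that comparison are therefore given below as a description, and where the text counts how many passed the threshold of the fit across all genes, nothing is read from the count. Meg3 was written RGD1566401 in the table and was looked up under that symbol. All 10 symbols had a row, and all 10 passed the count filter. Dlk1 and Meg3 passed it only through the air group.

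The lungs came from 12 male wild-type inbred Fischer 344 rats (F344/DuCrl), bought at 3 months of age and kept 3 to a cage. In whole-body chambers, 6 rats breathed air as controls and 6 breathed crystalline nanocellulose (CNC), very small rod-like crystals of cellulose, at 20 mg/m3. Exposure ran 6 hours a day on 5 days a week, for 14 days of exposure in all, and a piece of lung was taken 1 day after the last one. Libraries of polyadenylated RNA gave between 8693259 and 16603697 counts per rat, and levels are given as CPM, counts scaled to a common library size. Of the 30045 symbols, 15019 had enough counts to be tested, and 24.6% of these differed between the groups at an adjusted p under 0.05 by edgeR's quasi-likelihood test.

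Imprinted genes are transcribed mainly from the maternal or the paternal copy, and many of them control growth before birth and are turned down in most tissues afterwards. Dlk1 and Meg3 are neighbours with opposite imprints: Dlk1, a transmembrane protein with repeats like those of epidermal growth factor and a relative of the Notch ligands, is made from the paternal copy, and Meg3, a long noncoding RNA, from the maternal copy. In mouse, the zinc finger factor Plagl1 is known to regulate a network of imprinted genes that includes Cdkn1c, Dlk1 and Igf2. Dlk1 is known from fetal mesenchyme and mesothelium and from neuroendocrine cells.

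The start regions of the 3 genes at the centre of the network are shown because Dlk1 and Meg3, although neighbours that were both far lower in exposed lungs, carry very different sequence there. Each is the RefSeq promoter window of 300 bases, 250 before and 50 after the annotated start, from the GRCr8 assembly, which is not the build on which the counts were made. All 3 lie on the plus strand: Dlk1 at chr6:134192347-134192646, Meg3 at chr6:134273806-134274105 and Plagl1 at chr1:9297214-9297513. Capitals mark the motifs searched, a GC box (GGGCGG, the sequence bound by Sp1-type factors), a TATA box (TATAAA) and a full cAMP response element (TGACGTCA), each on both strands, with overlapping matches counted apart.
Dlk1: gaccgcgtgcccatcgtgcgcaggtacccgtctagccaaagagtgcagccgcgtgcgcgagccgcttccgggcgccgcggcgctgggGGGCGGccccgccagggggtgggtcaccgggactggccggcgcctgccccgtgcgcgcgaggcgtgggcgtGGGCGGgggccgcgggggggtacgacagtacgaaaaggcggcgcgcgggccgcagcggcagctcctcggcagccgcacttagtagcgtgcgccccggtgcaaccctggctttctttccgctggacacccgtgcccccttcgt
Meg3: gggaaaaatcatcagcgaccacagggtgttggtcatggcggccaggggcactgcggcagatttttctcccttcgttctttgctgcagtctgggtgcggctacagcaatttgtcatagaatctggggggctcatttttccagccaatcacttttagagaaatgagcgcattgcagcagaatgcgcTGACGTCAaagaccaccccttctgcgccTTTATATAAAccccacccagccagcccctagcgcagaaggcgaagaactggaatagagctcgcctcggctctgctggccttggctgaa
Plagl1: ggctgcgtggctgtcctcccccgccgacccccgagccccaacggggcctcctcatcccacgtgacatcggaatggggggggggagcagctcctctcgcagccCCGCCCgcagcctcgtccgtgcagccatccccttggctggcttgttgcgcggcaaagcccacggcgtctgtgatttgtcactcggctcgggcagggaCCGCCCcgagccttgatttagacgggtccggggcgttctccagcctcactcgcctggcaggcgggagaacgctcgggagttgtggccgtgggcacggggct

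The Dlk1 window held 45 CG pairs and 76.0% G or C, and 98.3% of the 33469 promoter windows of the rat had fewer CG pairs. It held 2 GC boxes, a motif found in 33.1% of all windows, and neither of the other motifs. The Meg3 window held 13 CG pairs and 54.3% G or C, and 64.7% of windows had fewer CG pairs. It held an overlapping pair of TATA box matches, a motif present in 14.2% of windows, and 1 cAMP response element, present in 1.83%. The Plagl1 window resembled that of Dlk1, with 29 CG pairs, 70.7% G or C and 2 GC boxes. The median window held 7 CG pairs. Windows were at hand for 8 of the 10 genes, and the palindrome GGGGCCCC bound by Plagl1, present in 0.858% of all windows, occurred among them only in 1 of the 3 Gnas windows. A match is a run of letters and was not tested as a binding site.

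Dlk1 and Meg3 were read readily in the air lungs and were close to the limit of detection in the CNC lungs. Dlk1 had 291, 160, 84, 72, 96 and 66 counts in air rats 1 to 6, and 8, 2, 6, 10, 7 and 3 counts in CNC rats 1 to 6. Scaled for library size, its level was lowest at 5.50 CPM, had a median of 8.39 and was highest at 21.0 in air, against 0.158, 0.492 and 0.687 in CNC. Every CNC rat lay far below every air rat, and air rat 1 stood well above the other air rats. The means were 9.97 ± 5.58 CPM (SD, n = 6) in air and 0.464 ± 0.207 (SD, n = 6) in CNC, a log2 fold change of -4.38 ± 0.39 (SE), or 20.9-fold lower. This was the most negative fold change among the 15019 genes. In a piece of bulk lung, fewer cells of a type and less RNA per cell cannot be told apart.

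Meg3 had 157, 63, 37, 35, 56 and 41 counts in air rats 1 to 6, and 4, 9, 5, 9, 8 and 3 counts in CNC rats 1 to 6. Its level was lowest at 2.67 CPM, had a median of 4.27 and was highest at 11.3 in air, against 0.303, 0.487 and 0.710 in CNC. Again the groups did not overlap, and again air rat 1 was the highest. The means were 5.15 ± 3.18 CPM (SD, n = 6) in air and 0.491 ± 0.183 in CNC, a log2 fold change of -3.35 ± 0.40 (SE), or 10.2-fold lower. Without air rats 1 and 2, the pair with the highest Dlk1, the log2 fold change was -3.92 for Dlk1 and -2.95 for Meg3, an alternative added after the values were seen.

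**Figure D1:**
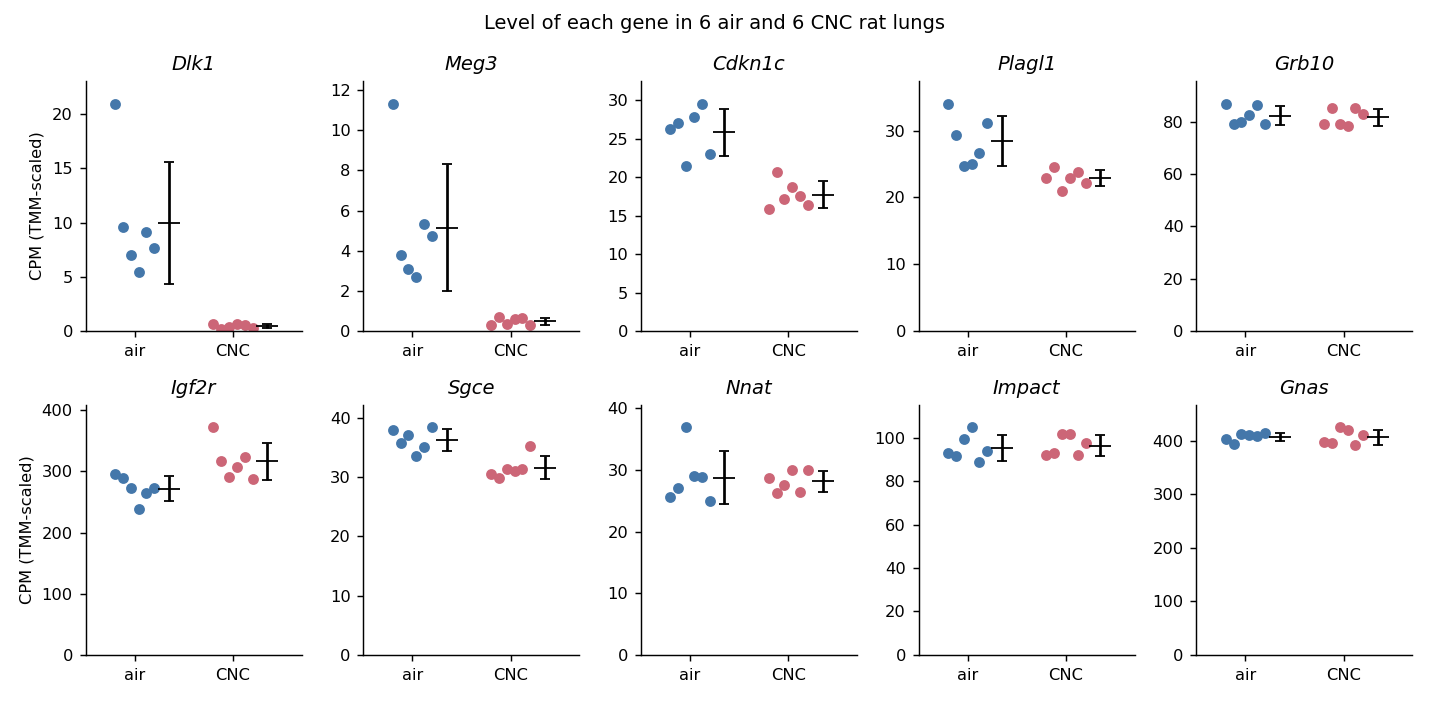
Level of each of the 10 genes in CPM (y axis, from 0) in 6 air and 6 CNC rats (x axis), with 1 point per rat and, beside the points, the mean and SD. Dlk1 and Meg3 lie near 0 in all CNC rats, Cdkn1c and Plagl1 are lower without overlap, and Grb10, Nnat, Impact and Gnas overlap between the groups.

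Because the pair is expressed from opposite copies of 1 locus, their balance was also followed within each rat. In air, there were 1.85, 2.54, 2.27, 2.06, 1.71 and 1.61 Dlk1 counts per Meg3 count in rats 1 to 6, without correction for transcript length. The ratio thus ran from 1.61 to 2.54, while the summed counts of the pair, which also follow library depth, ran from 107 to 448. Over all air rats Dlk1 made up 66.4% of the 1158 counts of the pair (95% Wilson interval 63.6% to 69.1%, counting error only). In CNC it made up 48.6% of 74 counts (interval 37.6% to 59.8%), and single rats had only 6 to 19 counts to divide. There were 2.0, 0.222, 1.2, 1.11, 0.875 and 1.0 Dlk1 counts per Meg3 count in CNC rats 1 to 6. CNC rat 1 thus lay within the range of the air rats, and CNC rat 2 was the lowest. Both intervals pool the counts of 6 rats and leave out the spread between rats. The share rests on the contrast that chose the genes and was not tested between groups.

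Rat-to-rat variation within a group was not used to choose the genes, and was examined separately. Among the 6 air rats, log2 Dlk1 and log2 Meg3 had a Pearson r of 0.944 (exact permutation p = 0.0222) and a Spearman rho of 0.829 (exact permutation p = 0.0583). Over the 18 relations of Dlk1 to the other 9 genes in the 2 groups, the Benjamini-Hochberg adjusted values were 0.225 for r and 0.462 for rho, so the relation did not pass. Without air rats 1 and 4, the farthest from the median of Dlk1, r was 0.458: the relation rested on those rats. Igf2r (r = 0.798, rho = 0.829, exact permutation p = 0.025 and 0.0583, adjusted 0.225 and 0.462) and Plagl1 (r = 0.803, rho = 0.771, exact permutation p = 0.0556 and 0.103, adjusted 0.333 and 0.462) were the next most alike in air, and r was 0.362 and 0.318 without the same rats. In the CNC group, where both genes had at most 10 counts a rat, r of Dlk1 to Meg3 was -0.156 (exact permutation p = 0.747, adjusted 0.841) and rho -0.143 (p = 0.803, adjusted 0.919). None of the 18 relations passed after adjustment.

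Across all 12 rats, after the group mean was removed, the genes whose pattern was most like that of Dlk1 among 14685 genes were Ptgfrn (r = 0.892), Cdh23 (0.891), Pno1 (0.883), B3galtl (0.875) and Galnt10 (0.863). Meg3 was at position 328 with r = 0.578, and Igf2r at position 337 with 0.576. For Meg3 the most alike were Glb1l (r = 0.886), Tbc1d32 (0.841), Adtrp (0.829), Mical3 (0.827) and Bcr (0.816), directly followed by Plagl1 with 0.809. These are ranks over 12 points that share library and depth, and the CNC values of Dlk1 and Meg3 carry large counting error.

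At the locus itself, the tested genes next to Dlk1 and Meg3 in the RefSeq order had none of their fold. Begain, the nearest on the Dlk1 side and itself imprinted in some mammals, had a mean of 7.23 ± 0.913 CPM in air and 6.32 ± 0.386 in CNC, a log2 fold change of -0.19 ± 0.10 (SE, adjusted p = 0.169). Wdr25 had a log2 fold change of -0.12 ± 0.11 (adjusted p = 0.505). Ppp2r5c, a regulatory subunit of protein phosphatase 2A on the Meg3 side, fell slightly (301 ± 8.73 CPM in air, 280.4 ± 6.20 in CNC, log2 fold change -0.10 ± 0.03, adjusted p = 0.0189). The locus also carries a large microRNA cluster: 56 microRNA symbols between Meg3 and Dio3 had rows, but with libraries of polyadenylated RNA only 2 of them had any count, 5 in all 12 libraries together. Dio3, the imprinted gene at the far end that encodes the thyroid hormone-inactivating deiodinase, had 0 to 4 counts per rat and was not tested. Rtl1, the retrotransposon-derived gene between them, was not analysed here.

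The same lookup was made around each of the 10 genes, with the 3 nearest tested genes on each side. Of 54 such neighbours, 6 rose and 8 fell, where 13.2% of all genes tested rose and 11.4% fell. Their median log2 fold change was -0.04, against -0.0026 over all genes tested.

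Cdkn1c and Plagl1, the other members whose groups did not overlap, were lower in CNC by much smaller factors. Cdkn1c encodes p57, an inhibitor of cyclin-dependent kinases made from the maternal copy. Its level was lowest at 21.4 CPM, had a median of 26.6 and was highest at 29.55 in air, against 15.9, 17.4 and 20.75 in CNC. The highest CNC rat lay just under the lowest air rat. The means were 25.8 ± 3.07 CPM and 17.8 ± 1.78, a log2 fold change of -0.54 ± 0.08 (SE), or 1.45-fold lower.

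Plagl1 encodes the zinc finger factor of the network, made from the paternal copy. Its level was lowest at 24.7 CPM, had a median of 28.0 and was highest at 34.0 in air, against 21.0, 22.9 and 24.5 in CNC. Here the gap between the groups was very small, 24.5 CPM in the highest CNC rat and 24.7 in the lowest air rat. The means were 28.5 ± 3.71 CPM and 22.9 ± 1.22, a log2 fold change of -0.32 ± 0.08 (SE). With the first principal component of 14 circadian clock genes as a covariate, the fold change of Plagl1 was -0.13. That component ran from -1.55 to 0.37 in air rats and from 0.36 to 1.32 in CNC rats, so it was close to the group label itself. Groups without overlap were found for 4 of the 10 genes, beside 11.5% of all genes tested; the contrast chose the genes, and nothing is read from that share.

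Sgce, which encodes epsilon-sarcoglycan of the membrane complex around dystrophin, was lower in CNC with 1 rat overlapping. Its level was lowest at 33.5 CPM, had a median of 36.4 and was highest at 38.4 in air, against 29.8, 31.1 and 35.3 in CNC. In 5 of 6 CNC rats it was below the lowest air rat, and CNC rat 6 lay among the air rats. The log2 fold change was -0.20 ± 0.05 (SE), or 1.15-fold lower.

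Igf2r had a higher level in CNC, with the groups overlapping. It encodes the receptor that carries mannose 6-phosphate-tagged enzymes to lysosomes and removes insulin-like growth factor 2, and is made from the maternal copy in rodents. Its level was lowest at 239 CPM, had a median of 272 and was highest at 295 in air, against 288, 312 and 372 in CNC. In 4 of 6 CNC rats it was above every air rat, and CNC rat 1 was the highest. The means were 272 ± 19.9 CPM and 316.5 ± 30.4, a log2 fold change of 0.22 ± 0.06 (SE), or 1.16-fold higher. With the clock gene covariate the fold change was 0.50. The Airn transcript runs antisense across Igf2r, and the libraries were stranded, but whether counting used the strand is not given in the sources used here.

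The remaining 4 genes had nearly the same level in both groups. Grb10, an adaptor that inhibits the insulin and insulin-like growth factor receptors, had 82.3 ± 3.51 CPM in air and 81.6 ± 3.18 in CNC, a log2 fold change of -0.01 ± 0.04 (SE). Nnat, a small membrane protein of the endoplasmic reticulum, had 28.75 ± 4.30 CPM in air and 28.15 ± 1.73 in CNC, a log2 fold change of -0.03 ± 0.08. Air rat 3 was its highest at 36.9 CPM, above all CNC rats.

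Impact, which binds GCN1 and restrains the amino acid-sensing kinase GCN2, had 95.2 ± 5.83 CPM in air and 96.3 ± 4.71 in CNC, a log2 fold change of 0.02 ± 0.04. Gnas, whose products include the stimulatory G alpha subunit, had 407 ± 7.61 CPM in air and 407 ± 13.9 in CNC, a log2 fold change of 0.00 ± 0.03. These are small standard errors, and the values of both groups interleaved for each of the 4 genes. Gnas has several starts and imprints within 1 locus, and a single row of counts cannot separate its transcripts.

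The 10 genes also differed in how much rats of 1 group varied. In air, the coefficient of variation was 56.0% for Dlk1 and 61.6% for Meg3, against 11.9% for Cdkn1c, 13.1% for Plagl1, 15.0% for Nnat, 7.33% for Igf2r, 6.13% for Impact, 5.12% for Sgce, 4.27% for Grb10 and 1.87% for Gnas. Without air rat 1 it was 21.3% for Dlk1 and 28.3% for Meg3. These values include counting error, which is larger for genes with few counts. Summed over the air rats, Meg3 had 389 counts, Dlk1 769 and Gnas 30363. The part of counting error in these differences between genes was not tested. Over the 10 genes, 5 were called lower and 1 higher in the fit across all genes, beside 11.4% and 13.2% of all genes tested. With the clock gene covariate, Plagl1 and Sgce did not pass. These counts belong to the contrast that chose the genes and are given as a description.

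**Figure D2:**
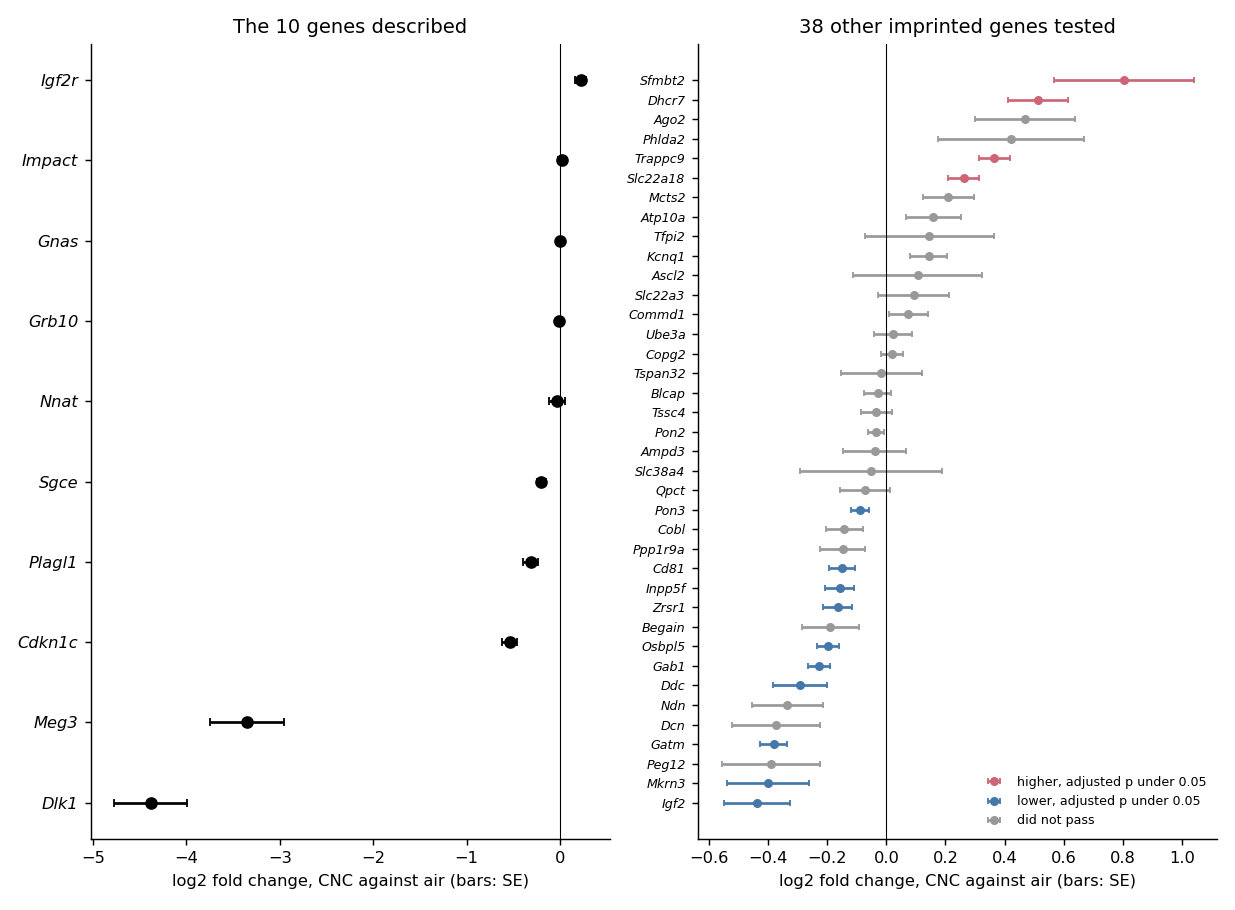
Log2 fold change of CNC against air (x axis, bars are SE) for the 10 genes on the left and for 38 other imprinted genes on the right, which has its own, narrower axis and where colour marks an adjusted p under 0.05. Dlk1 at -4.38 and Meg3 at -3.35 lie far from the other members, and the other imprinted genes run from -0.44 for Igf2 to 0.80 for Sfmbt2.

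Other genes known to be imprinted in mouse, in whatever tissue, were read from a list of 70, of which 59 were in the table and 38 were tested. Counts per symbol do not separate the parental copies, so whether these genes are imprinted in rat lung was not tested. Of these 38, 4 rose and 10 fell, together 36.8% beside 24.6% of all genes tested. Their median (log2) was -0.04. The count was 9 without air rat 1, and also 9 without CNC rat 5. With the clock gene covariate it was 4, with none higher.

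Igf2, the paternally expressed fetal growth factor that Igf2r removes, fell from 5.91 ± 0.721 CPM to 4.35 ± 0.450 (log2 fold change -0.44 ± 0.11, adjusted p = 0.00907). Air rats ran from 4.80 to 6.87 CPM and CNC rats from 3.66 to 4.90, with a small overlap. H19, the noncoding RNA beside Igf2, had 0 to 3 counts per rat, and Mest, a paternally expressed hydrolase, 3 to 29, and neither was tested. Peg3, a zinc finger gene of the same network in mouse, was not analysed here.

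Gatm, the first enzyme of creatine synthesis, had the smallest adjusted p among the other imprinted genes. It fell from 60.8 ± 3.19 CPM to 46.7 ± 2.71 (log2 fold change -0.38 ± 0.05, adjusted p = 2.8e-05), and the groups did not overlap. Trappc9, a subunit of a vesicle-tethering complex, rose from 44.4 ± 2.94 CPM to 57.1 ± 3.84 (0.36 ± 0.05, adjusted p = 0.000122). Dhcr7, the last enzyme of cholesterol synthesis, rose from 10.6 ± 1.73 CPM to 15.2 ± 1.36 (0.51 ± 0.10, adjusted p = 0.00167). Slc22a18, a transporter directly beside Cdkn1c, rose from 22.7 ± 1.19 CPM to 27.25 ± 1.67 (0.26 ± 0.05, adjusted p = 0.00191), while Cdkn1c itself was lower. Gab1, a docking protein of receptor tyrosine kinases, and Osbpl5, a lipid transfer protein, fell (log2 fold changes -0.23 and -0.20, adjusted p = 0.000305 and 0.00116). With the clock gene covariate, Trappc9, Dhcr7, Slc22a18 and Gab1 did not pass (adjusted p = 0.127, 0.215, 0.268 and 0.427).

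The calls of the other 5 named by the rule were lost when certain single rats were left out. Sfmbt2, a Polycomb-group protein, rose by 0.80 on the log2 scale at about 1 to 2 CPM (adjusted p = 0.0214, and 0.0585 without air rat 2). Cd81, a tetraspanin, fell by 0.15 (adjusted p = 0.0237, and 0.0553 to 0.0645 without air rat 1, air rat 2, CNC rat 1 or CNC rat 5). Zrsr1, a splicing factor relative, fell by 0.165 (adjusted p = 0.0251, and 0.053 to 0.0606 without air rat 1, 2, 4 or 6 or CNC rat 1, 3 or 4). Ddc, the decarboxylase of dopamine and serotonin synthesis, beside Grb10, fell by 0.29 (adjusted p = 0.0277, and 0.0521 to 0.0664 without air rat 1, 2 or 3 or CNC rat 1, 2 or 5). Inpp5f, a phosphoinositide phosphatase, fell by 0.16 (adjusted p = 0.0284, and 0.0528 to 0.0774 without air rat 1 or 5 or CNC rat 3, 5 or 6).

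Igf2r and Grb10 act on insulin-like growth factor signalling, and 12 other genes of that axis were tested. Of these, 2 rose and 4 fell, where 24.6% of all genes tested were called (13.2% higher, 11.4% lower), with a median of -0.12 on the log2 scale. Igfbp3, the main carrier of the growth factors in blood, fell from 51.05 ± 3.21 CPM to 36.2 ± 4.39 (log2 fold change -0.49 ± 0.07, adjusted p = 0.000108). Igfbp2, another binding protein, fell from 15.8 ± 3.80 CPM to 10.5 ± 1.55 (-0.60 ± 0.15, adjusted p = 0.00675). Both the binding protein Igfbp4 and Pappa, the protease that cuts it, rose, Igfbp4 from 188 ± 17.6 CPM to 222 ± 22.9 (0.24 ± 0.07, adjusted p = 0.0202) and Pappa from 3.13 ± 0.794 CPM to 5.30 ± 0.976 (0.78 ± 0.17, adjusted p = 0.00341). Without air rats 1 and 2, 2 genes of the axis were called. With the clock gene covariate 2 were called, both higher, and neither was Igfbp4 or Pappa. Igf1, the growth factor itself, had a log2 fold change of 0.23 ± 0.08 (adjusted p = 0.0506), and the receptors Igf1r and Insr had -0.11 and 0.06 (adjusted p = 0.137 and 0.533).

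Among relatives of Cdkn1c, 4 cyclin-dependent kinase inhibitors were tested, and 2 fell with none higher, beside 11.4% of all genes tested that fell. Cdkn1b, which encodes p27, fell from 153 ± 6.09 CPM to 139 ± 5.13 (log2 fold change -0.13 ± 0.03, adjusted p = 0.0105). Cdkn1a, which encodes p21, fell from 35.4 ± 3.21 CPM to 31.02 ± 2.35 (-0.19 ± 0.06, adjusted p = 0.0423, and 0.0555 to 0.0995 without air rat 2, 4, 5 or 6 or CNC rat 2, 3, 4 or 6). The summed level of 8 proliferation markers was higher in CNC, 140.4 ± 13.1 CPM against 116 ± 10.8 (exact permutation p = 0.00649, adjusted 0.013 over 12 marker lists). Of these 8 markers, 3 were called higher and none lower, beside 13.2% of all genes tested that rose. The part of this difference in the lower Cdkn1c was not tested.

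Of 13 tested partners of Sgce in the sarcoglycan and dystrophin complex, 4 fell and none rose, 30.8% called beside 24.6% of all genes tested, with a median of -0.14 on the log2 scale. Dtna, which encodes alpha-dystrobrevin, fell from 47.4 ± 2.76 CPM to 40.9 ± 2.36 (-0.22 ± 0.05, adjusted p = 0.00376). Sspn, which encodes sarcospan, fell from 26.4 ± 1.701 CPM to 21.5 ± 2.24 (-0.30 ± 0.07, adjusted p = 0.00466). Sgca, the muscle alpha-sarcoglycan, fell from 6.99 ± 0.966 CPM to 5.11 ± 0.648 (-0.46 ± 0.11, adjusted p = 0.00752). With the clock gene covariate only 1 gene of the complex was called, in the other direction.

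Beside a level Gnas, 20 other G alpha subunits and adenylyl cyclases were tested, of which 1 rose and 9 fell, beside 13.2% and 11.4% of all genes tested, with a median of -0.17. Gna15, a subunit of the Gq family known mainly from blood cells, rose from 13.8 ± 1.27 CPM to 21.6 ± 1.33 (0.64 ± 0.07, adjusted p = 9.49e-06). Gnai1, an inhibitory subunit, fell from 58.8 ± 3.58 CPM to 46.8 ± 1.55 (-0.33 ± 0.04, adjusted p = 5.5e-05). Gnao1 fell from 47.0 ± 2.28 CPM to 36.96 ± 3.41 (-0.35 ± 0.06, adjusted p = 0.000314), and Gna12 from 254 ± 12.96 CPM to 216.5 ± 7.38 (-0.23 ± 0.04, adjusted p = 0.000376). With the clock gene covariate 1 gene of the list was called.

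Dlk1 is related to the Notch ligands and is shed by proteases of the ADAM family. Of 16 tested genes of the Notch pathway and of Dlk1 shedding, 7 fell and none rose, 43.8% called beside 24.6% of all genes tested, with a median of -0.18. Notch2 was not among them, since its own row had 0 to 2 counts per rat and a second row of the same symbol was not used. Notch3, the receptor of vascular smooth muscle and pericytes, fell from 199.6 ± 32.02 CPM to 147 ± 12.6 (-0.45 ± 0.09, adjusted p = 0.0022). The ligand Jag2 and the receptors Notch4 and Notch1 fell by 0.27, 0.27 and 0.20 on the log2 scale (adjusted p = 0.00278, 0.00371 and 0.012). The sheddases Adam17 and Adam10 had log2 fold changes of 0.06 ± 0.03 and 0.01 ± 0.03 (adjusted p = 0.271 and 0.871), and Dlk2, the close relative of Dlk1, had no count in any rat. The count of the list was 4 without air rat 6 or without CNC rat 5, 3 without air rats 1 and 2, and 1 with the clock gene covariate. Beside these genes, 9 of 10 endothelial markers fell, with a summed level of 5747 ± 380 CPM in air and 4776 ± 241 in CNC (exact permutation p = 0.00216, adjusted 0.00519). The 7 smooth muscle markers, 2 of which fell, summed to 489 ± 82.7 CPM in air (range 405.8 to 624) and 417 ± 37.5 in CNC (range 389 to 490.5; exact permutation p = 0.0779, adjusted 0.117, and 0.0455 and 0.0371 without air rat 3 and CNC rat 3). The part of these differences in the Notch genes was not tested.

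Impact acts on the GCN1 and GCN2 arm of the response to amino acid shortage, and of 10 genes around the eIF2 kinases 2 rose and none fell, 20.0% called beside 24.6% of all genes tested, with a median of 0.08. Eif2s1, which encodes the alpha subunit of eIF2, had 54.5 ± 3.39 CPM in air and 60.1 ± 2.90 in CNC (0.14 ± 0.05, adjusted p = 0.0284, and 0.0553 to 0.0644 without air rat 1 or 2 or CNC rat 2 or 5). Ppp1r15a, a subunit of the eIF2 phosphatase, had 60.5 ± 4.15 CPM and 67.5 ± 4.11 (0.16 ± 0.05, adjusted p = 0.0338, and 0.0502 to 0.0838 without air rat 2, 5 or 6 or CNC rat 4 or 5). The binding partner Gcn1 had a log2 fold change of 0.00 ± 0.04 (adjusted p = 0.987) and the kinase Eif2ak4, which is GCN2, -0.07 ± 0.04 (adjusted p = 0.212). Scaled by library size alone, no gene of this list was called.

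**Figure D3:**
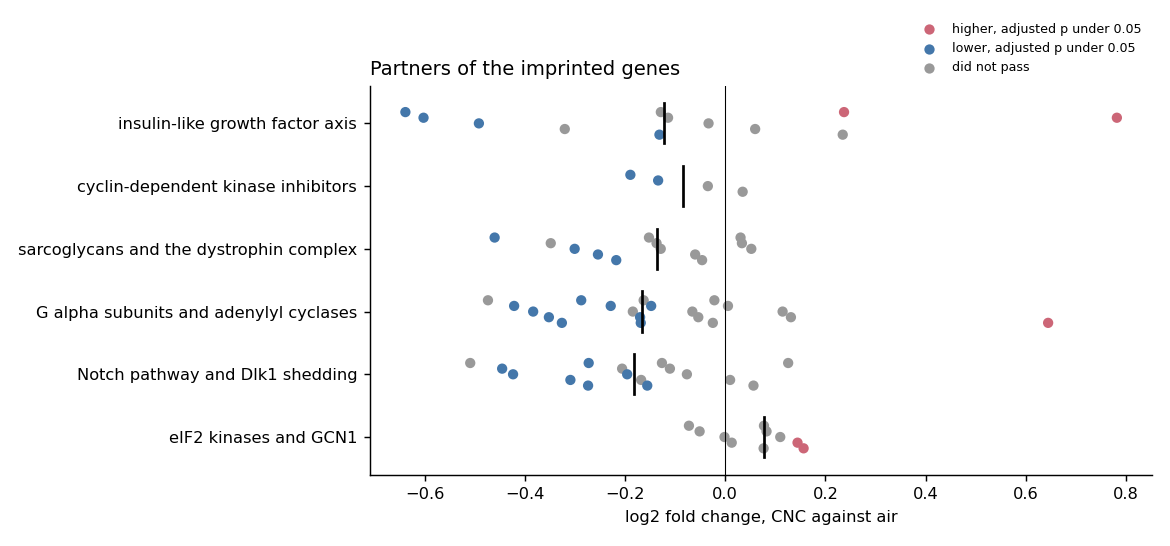
Log2 fold change of CNC against air (x axis) for every tested gene of 6 lists of partners of the imprinted genes (y axis), with 1 point per gene, colour for an adjusted p under 0.05 and a black bar at the median of each list. All genes called in the sarcoglycan, kinase inhibitor and Notch lists lie on the lower side, and the highest point is Pappa at 0.78.

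Since Dlk1 is known from a few cell types that a piece of lung may hold in varying amount, the summed markers of those types were set beside it. The 6 mesothelial markers had a summed level of 80.6 ± 49.7 CPM in air (range 31.3 to 168) and 79.4 ± 55.9 in CNC (range 43.4 to 189; exact permutation p = 0.959), and none of the 5 tested was called. Msln, the defining marker mesothelin, had 40.45 ± 19.9 CPM in air and 40.3 ± 22.25 in CNC.

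Within the air group, the relation of Dlk1 to each marker sum was computed after both had been seen. Air rat 1 had the highest marker sum, 168 CPM, with the highest Dlk1 and Meg3, and air rats 3 and 4 had the lowest sums, 31.3 and 33.15, with the lowest Dlk1. Pearson's r was 0.877 (exact permutation p = 0.025) and Spearman's rho 0.886 (p = 0.0333). Without air rats 3 and 4, the farthest from the median of the marker sum, r was 0.962. Air rat 1 was still among the rats kept. For Meg3 over all air rats, r was 0.902 (exact permutation p = 0.0333) and rho 0.714 (p = 0.136). Over the 48 relations computed, the adjusted values of r were 0.4 for both genes, so neither passed. In the CNC group r of Dlk1 to the marker sum was 0.126, and CNC rat 1 had the highest marker sum of all, 189 CPM, with 0.651 CPM of Dlk1. Other relations among the 48 were of like size: heart muscle markers to Dlk1 had r = -0.873 and rho = -0.829 in air (exact permutation p = 0.05 and 0.0583, adjusted 0.471 and 0.56). Here air rats 1 and 4 were the farthest from the median of the marker sum, and r was -0.162 without them. The r values of 0.962 and -0.162 thus leave out different rats and cannot be set against each other. In CNC the heart muscle markers had r = -0.755 and rho = -0.943 to Dlk1 (exact permutation p = 0.00556 and 0.0167, adjusted 0.267 and 0.533). Alveolar type 2 markers to Meg3 had r = 0.914 and rho = 0.886 in CNC (exact permutation p = 0.0278 and 0.0333, adjusted 0.4 and 0.533). None of the 48 passed after adjustment.

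Per 100 CPM of mesothelial markers, Dlk1 was at 12.5, 11.1, 22.3, 16.6, 11.6 and 8.88 CPM in air rats 1 to 6, and at 0.345, 0.181, 0.98, 1.34, 0.951 and 0.647 CPM in CNC rats 1 to 6. The groups did not overlap in this ratio, which uses the same Dlk1 values that chose the gene and is a description.

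**Figure D4:**
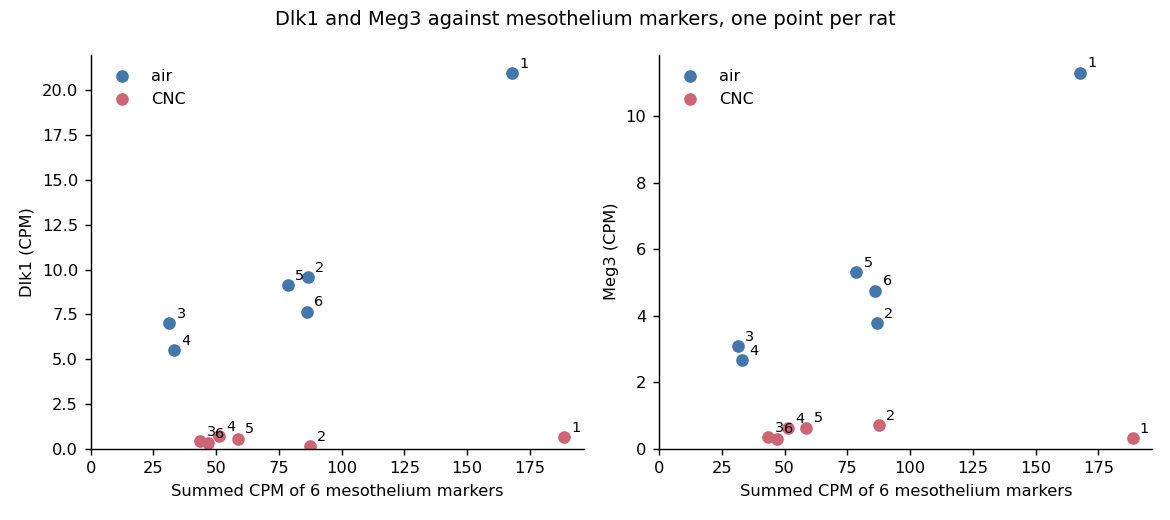
Dlk1 (left) and Meg3 (right) in CPM (y axis) against the summed CPM of 6 mesothelial markers (x axis), with 1 point per rat, numbered within its group. Among air points, rat 1 is the highest in both panels and has the most markers, 168 CPM. The relations within air did not pass after adjustment over the 48 computed. CNC points stay under 1 CPM of Dlk1 and Meg3 up to 189 CPM of markers.

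The other marker lists moved as follows, where 11.4% of all genes tested fell and 13.2% rose. The 7 neuroendocrine markers summed to 2.36 ± 0.482 CPM in air and 2.04 ± 0.465 in CNC (exact permutation p = 0.253, adjusted 0.276), too low for any of them to be tested. Of 9 tested fibroblast markers, 6 fell, and their sum was 4760 ± 385 CPM in air (range 4190.0 to 5143) and 4209 ± 126 in CNC (range 4036 to 4408; exact permutation p = 0.0173, adjusted 0.0297, and 0.0519 and 0.0557 without CNC rat 4 and CNC rat 5). The Col1a2 row held 1 count in all 12 rats, a second row of that symbol was not used, and the gene is thus not part of the sum in effect. The part of this difference in the Dlk1, Meg3 and Plagl1 values was not tested. Adipocyte markers summed to 118 ± 11.45 CPM in air (range 103.5 to 131) and 81.7 ± 6.13 in CNC (range 75.3 to 91.2; adjusted 0.00519 by the same test), with 1 of 3 tested higher and 1 lower. Nerve and Schwann cell markers, 1 of 3 tested lower, summed to 24.7 ± 2.09 CPM in air (range 22.8 to 28.4) and 19.3 ± 1.36 in CNC (range 17.9 to 21.7; exact permutation p = 0.00216, adjusted 0.00519). Alveolar type 1 markers, 3 of 6 lower, summed to 5269 ± 517 CPM in air and 4855 ± 106 in CNC (exact permutation p = 0.0931, adjusted 0.124, and 0.0292 without air rat 5). Their part in the values of the imprinted genes was not tested.

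Heart muscle markers, which rodent pulmonary veins also contain, varied widely, from 12.8 to 453 CPM in air and from 13.3 to 131 in CNC, with none of 10 called and Nppb at 0 in both groups. With their sum as a covariate the log2 fold changes were -4.58 for Dlk1 and -3.49 for Meg3. Lung identity was plain from the alveolar type 2 markers, whose sum was 25800.0 ± 2375 CPM in air and 33970.0 ± 2692 in CNC. Macrophage markers summed to 923.9 ± 50.4 CPM and 1410.0 ± 174, with Marco at 0 in both groups. Of 7 macrophage markers tested, 5 were higher and 1 lower, beside 13.2% and 11.4% of all genes tested. Both sums, alveolar type 2 and macrophage, were higher in CNC in all 6 rats than in any air rat (exact permutation p = 0.00216, adjusted 0.00519 for each). The scaling by CPM sets each gene against the whole library, and the part of this shift in the lower genes was not tested.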

How the data were processed

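The data are raw, whole-number counts for each gene symbol in 12 rat lungs, as deposited by the authors without normalization. Per the submitters' processing notes, the tools were HTSeq 0.11.2, SAMtools 1.8, HISAT2 2.1.0, Trimmomatic 0.35, bcl2fastq 2.19 and Cufflinks, with no role stated for any. Annotation and strand setting are not given in the sources, so overlapping and antisense genes are uncertain. Table columns begin with NCB where sample titles begin with CNC and were matched by rat number and group letter. Replicate numbers follow accession order. Depth was 8693259 to 16603697 counts; library pairs differed beyond sampling noise.

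Counts were filtered with filterByExpr (minimum 10, total 15), scaled by TMM and tested with edgeR 4.0.16 in R 4.3.3 (quasi-likelihood, Benjamini-Hochberg over 15019 genes, threshold 0.05); CPM are TMM-scaled. Relations used log2 CPM with a prior count of 2. Alternatives used DESeq2 1.42.0 and limma 3.58.1, other scalings and filters, covariates and left-out rats. The fit was tested on simulated data. P-values measure the spread between rats, whose cages are not known. Of 166 symbols in the lists, 150 matched by symbol and 3 by RefSeq synonym. RefSeq (GRCr8) gave names, neighbours and promoters, not coordinates of counts. The members and lists were chosen with earlier results of these data known. Named were all members, Igf2, H19, Mest, Peg3, Rtl1 and Dio3, up to 12 called other imprinted genes and up to 4 called genes of each other list by adjusted p, and the 5 genes most like Dlk1 and Meg3. A gene that the rule names is not reported here.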

Additional observations from a re-analysis of the deposited data

Results flagged for a closer look

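Of 84 sets of 6 rats checked, 8 held a highest or lowest rat far from the other 5 by Dixon's ratio at the 95% level, and chance alone gives about 1 in 20. Air rat 1 was the highest for both Dlk1, at 21.0 CPM, and Meg3, at 11.3 CPM, and also for Inpp5f, at 70.5 CPM. Among members, air rat 3 was the highest for Nnat at 36.9 CPM and CNC rat 6 for Sgce at 35.3 CPM. CNC rat 1 was the highest for Gab1 at 80.9 CPM. CNC rat 3 was the lowest for Sfmbt2 at 1.06 CPM and for Gna15 at 18.9 CPM.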

How the results depend on the processing

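No paired analysis was possible because the replicate numbers follow accession order and the labels give the groups no shared number. Over 23 alternatives, Dlk1 ran from -4.58 to -3.80 and Meg3 from -3.49 to -2.93 (log2). No called value turned in direction among the 10 members and the 32 called genes named, and the other genes were not checked for this. The clock gene covariate had the widest effect: it left 882 genes called (554 higher, 328 lower), 4 other imprinted genes, 2 of the growth factor axis, 1 each of the kinase inhibitor, sarcoglycan, G alpha and Notch lists and 0 of the eIF2 list, and gave Cdkn1c -0.70, Plagl1 -0.13, Igf2r 0.50, Impact -0.13 and Gnas -0.052; Plagl1 and Sgce were then not called. Without air rats 1 and 2 the counts were 2365 genes, 9, 2, 1, 3 (Notch) and 0 (eIF2). The kinase inhibitor count was also 1 with no count filter and with the heart muscle covariate; the eIF2 count was 0 by library size alone and 1 with the heart muscle covariate. Leaving out 1 rat at a time gave 3091 to 3722 genes, 9 to 14 other imprinted genes, 4 to 7 growth factor axis, 1 to 2 kinase inhibitor, 3 to 5 sarcoglycan, 9 to 11 G alpha, 4 to 8 Notch and 0 to 2 eIF2 genes, and differences in marker sums of -664.6 to -474.0 CPM (fibroblast), -88.6 to -44.9 (smooth muscle) and -521.6 to -252.4 (alveolar type 1). Alveolar type 1 markers passed by library size alone (-488.2 CPM, adjusted p = 0.0216) and without air rat 5, and smooth muscle markers without air rat 3 or CNC rat 3. The cause was not tested. Of 32 called genes named, 6 kept their call throughout (Gatm, Osbpl5, Igf2, Cdkn1b, Gna15, Notch3), 9 lost it without a single rat, and 26 lost it with the clock gene covariate. Depth limits Dlk1 and Meg3 in CNC, at 2 to 10 counts per rat.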

Other observations

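Mest, the imprinted hydrolase that was too low to test, had 25, 29, 6, 5, 10 and 9 counts in air rats 1 to 6 and 20, 8, 5, 3, 7 and 7 in CNC rats 1 to 6. Its highest CNC value was in rat 1, at 1.63 CPM, the rat with the highest mesothelial markers, where Dlk1 had 0.651 CPM and Meg3 0.325 CPM. Ptgfrn, the gene most like Dlk1 after the group means were removed, fell from 339.5 ± 17.45 CPM to 287 ± 10.6 (log2 fold change -0.24 ± 0.04, adjusted p = 0.000245 by edgeR's quasi-likelihood test). The genes that came next did not share this fall. By the same test Pno1 rose (0.17 ± 0.06, adjusted p = 0.0499). Cdh23, B3galtl and Galnt10 were not called (0.13, -0.11 and -0.02, adjusted p = 0.551, 0.102 and 0.798).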
